A study of Rattus norvegicus with 22 samples.

Results

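The genes described here encode the enzymes that hydroxylate and crosslink collagen: the lysyl oxidases Lox, Loxl1, Loxl2 and Loxl3, the lysyl hydroxylases Plod1, Plod2 and Plod3, and the prolyl 4-hydroxylase alpha subunits P4ha1, P4ha2 and P4ha3. They were found by their symbol in the annotation of the arrays. Of the 10 genes, 9 had a probe, 1 each, among 19167 gene symbols measured by 30367 probes. P4ha3 was found neither by symbol nor by accession or description. Expression was measured in tongue tissue of 11 male F344 rats, about 33 weeks of age, whose drinking water had held 20 ppm of the carcinogen 4-nitroquinoline-1-oxide (4-NQO) during 10 weeks. Tissue was collected 23 to 26 weeks after the first exposure. Each rat gave a piece of oral squamous cell carcinoma (OSCC) and a piece of adjacent, phenotypically normal tongue, so that the normal tissue had been exposed to the carcinogen as well. The deposited titles call all 22 samples untreated, and treatment is labelled as none for the normal pieces, whereas the protocol and the study's methods take both tissues from treated rats. No tongue of a rat without 4-NQO was analysed here.

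Fibrillar collagen is modified inside the cell before it is secreted. Prolyl 4-hydroxylase, a tetramer of alpha subunits with the P4hb protein, hydroxylates prolines and so stabilizes the triple helix, and the lysyl hydroxylases act on lysines, Plod2 mainly on those of the telopeptides, the short non-helical ends of the chain. Both kinds of enzyme need iron, 2-oxoglutarate and ascorbate. Outside the cell, the copper-dependent lysyl oxidases oxidize lysines and hydroxylysines to the aldehydes from which collagen and elastin crosslinks form. In solid tumors these enzymes are known for their part in the stiffening of the stroma.

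Every piece was measured on 1 one-color Agilent array. Values are log2 signals relative to the array's 75th percentile, so that 0 equals that percentile, and a difference is OSCC minus normal within a rat. A gene was called when its adjusted p from limma, over all probes, was below 0.05 and its mean change was at least 2-fold. In bulk tissue, fewer cells of a type and less RNA per cell cannot be told apart. Precision is limited by how many arrays there were. On a normal array 48.4% to 56.1% of probes were well above background, and on an OSCC array 52.3% to 65.5%. Normal tissue was on 3 slides and OSCC on 4 different ones, so that no slide held both. The scans of all 11 normal arrays and of the OSCC of animals 4 and 9 fell on the same day, and those of the remaining 9 OSCC arrays on a different one. The study names animals 21, 22 and 24 as examples of variability between rats.

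Because the lysyl oxidases are related in sequence, the probes that measured them are shown first, as the array annotation prints them, from the 5' end. Capitals mark the bases that equal those of the Lox probe in the best ungapped overlay, in which a match counted 1, a mismatch took away 0.5 and at least 20 bases overlapped.
Lox: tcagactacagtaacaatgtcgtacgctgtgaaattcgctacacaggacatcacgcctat
Loxl1: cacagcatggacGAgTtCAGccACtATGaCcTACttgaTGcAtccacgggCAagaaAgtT
Loxl2: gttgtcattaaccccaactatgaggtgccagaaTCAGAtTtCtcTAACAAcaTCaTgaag
Loxl3: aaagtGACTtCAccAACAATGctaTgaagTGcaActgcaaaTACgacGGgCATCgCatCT
The Loxl3 probe had the same base as the Lox probe at 29 of 58 overlaid positions, the Loxl1 probe at 22 of 51 and the Loxl2 probe at 16 of 27. The longest run of bases shared by any pair among the 9 probes was 8, between Loxl2 and Plod3, out of a length of 60. In the rn4 assembly that the annotation uses, the Lox probe lies at chr18:47898302-47898361 on the minus strand, that of Loxl1 at chr8:62088318-62088377 (minus), that of Loxl2 at chr15:50067990-50068049 (plus) and that of Loxl3 at chr4:117261532-117261591 (plus). The Plod2 probe, at chr8:97622880-97622939 (plus), is annotated with both RefSeq transcripts of the gene and does not separate its splice forms. Whether a probe lies in a coding exon or a UTR is not given in the annotation.

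Limma called 4 of the 9 genes up-regulated in OSCC (44.4%), namely Lox, Loxl1, Loxl2 and Plod2, and 0 down-regulated (0 also at an unadjusted p below 0.05 and 2-fold). Among all 19167 genes, 14.7% were called, 7.48% higher and 7.24% lower. With arrays scaled to their median 34.1% of the called genes were higher, against 50.8% here. The median log2 difference was 0.95 over the 9 genes and -0.21 over all genes. The other 5 genes were not called: P4ha1, Plod3, Plod1 and Loxl3 had adjusted p below 0.05 in limma but changes under 2-fold, and P4ha2 had neither. For Plod1 and Loxl3 this p rose above 0.05 under several alternative settings. In all 11 rats OSCC was higher for 3 genes (Lox, Plod2 and P4ha1), as it was for 4.67% of all genes. No gene of the 9 had every OSCC array above every normal array, which held for 0.694% of all genes. The plot of log2 expression by tissue shows the single rats.

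**Figure D1:**
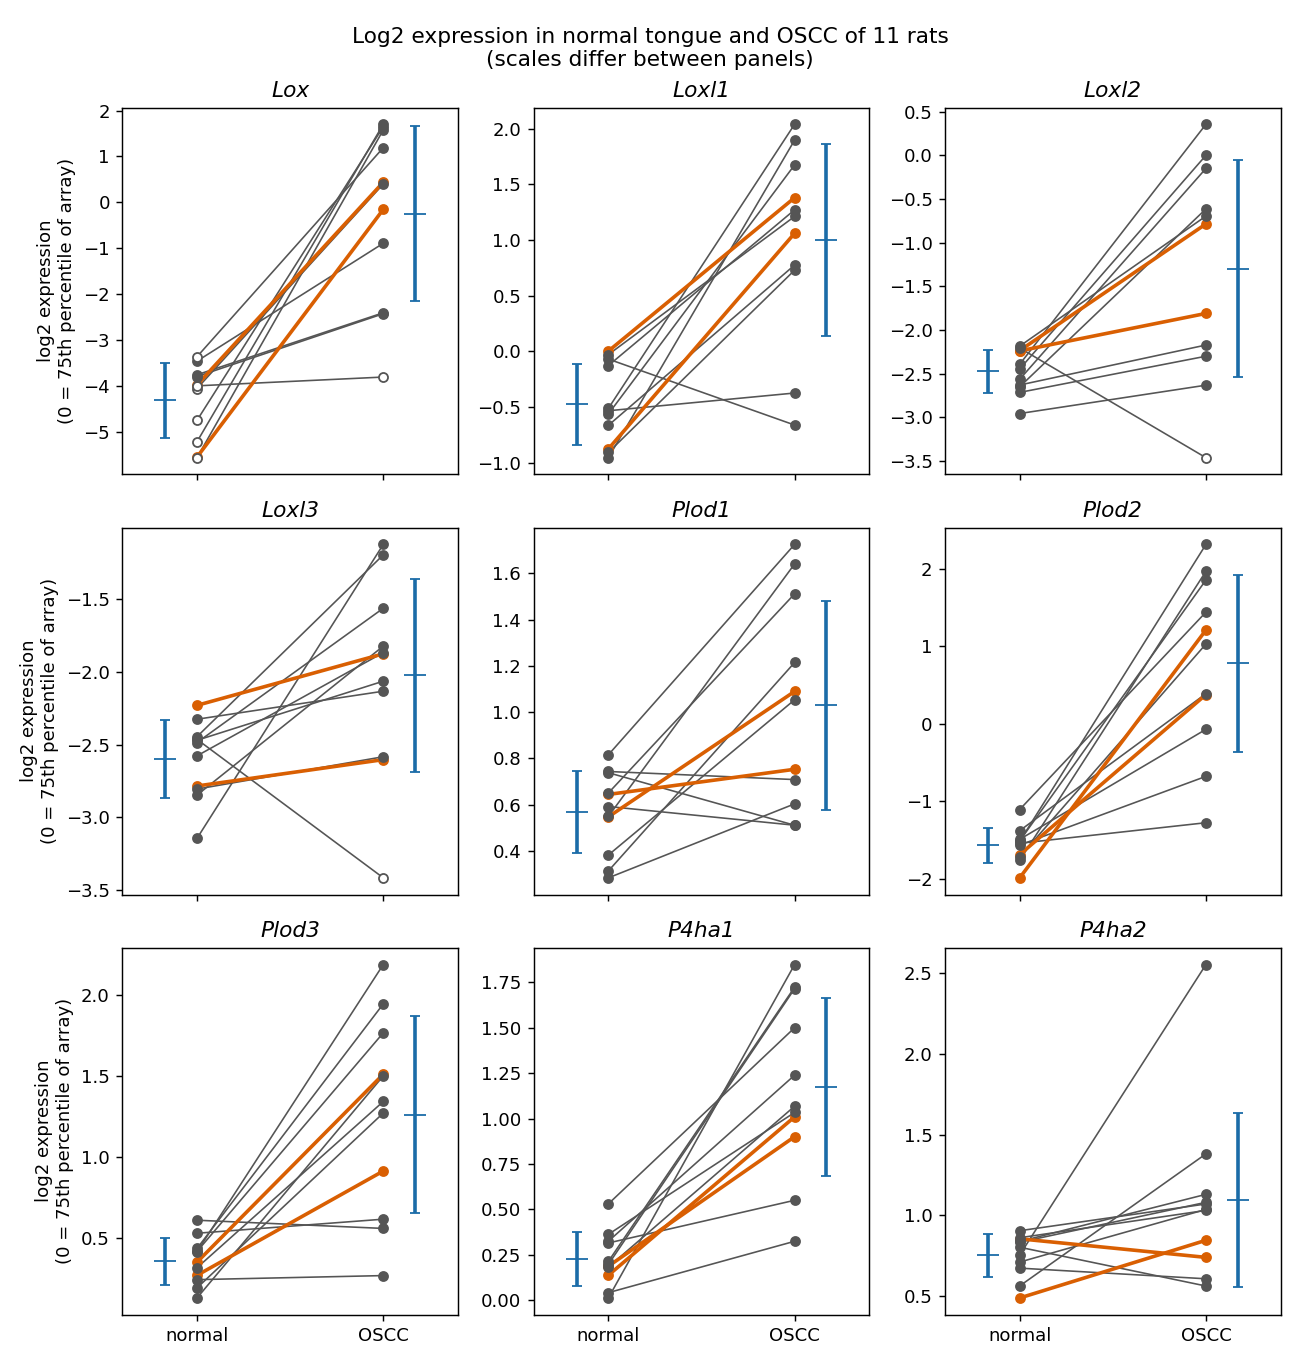
Log2 expression (vertical axis, 0 = 75th percentile of the array) of the 9 genes in normal tongue and OSCC, with a line for each of 11 rats, orange for animals 4 and 9, whose arrays were both scanned on 1 day. Open circles are not well above background, blue bars are the mean ± SD over 11 arrays, and the vertical scales differ. Lox rises from a mean of -4.31 to -0.25, and lines run upward in every rat for Lox, Plod2 and P4ha1.

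Lox, the founding lysyl oxidase, was the gene with the largest change of the 9. Its log2 expression on normal arrays had a lowest value of -5.56, a median of -4.0 and a highest of -3.36, and on OSCC arrays a lowest of -3.80, a median of 0.40 and a highest of 1.70. Of the 11 OSCC arrays, 10 lay above all normal arrays, and the exception was that of animal 17. Mean expression was -4.31 ± 0.81 on normal and -0.25 ± 1.90 on OSCC arrays (SD, n = 11). Lox thus rose by a log2 difference of 4.07 (standard error 0.65, 95% interval 2.67 to 5.47, adjusted p = 0.00079 from limma), which is 16.8-fold as a ratio of geometric means. By size of rise it was 62nd among all 19167 genes. Lox was detected well above background on 4 of 11 normal and 10 of 11 OSCC arrays, so the size of the ratio is uncertain. In the 4 rats where both tissues were above background (animals 4, 21, 22 and 24) the mean difference was 2.43, from 1.35 to 4.42. Choosing rats by detectable Lox in normal tissue favors smaller differences, and animals 21, 22 and 24 are those the study names as variable. With dim signals raised to the lowest signal above background on the array the mean over 11 rats was 3.48. After normexp background correction it was 2.36. Single rats ranged from 0.19 (animal 17) to 7.14 (animal 25).

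Loxl1, a lysyl oxidase best known for its part in elastic fibers, was well above background on every array. Its log2 expression ran from -0.95 to 0.00 on normal arrays (median -0.53) and from -0.66 to 2.04 on OSCC arrays (median 1.21). The tissues overlapped through animals 17 and 21, and the other 9 OSCC arrays lay above all normal arrays. Loxl1 rose by 1.48 on the log2 scale (standard error 0.28, 95% interval 0.87 to 2.08, adjusted p = 0.0019 from limma), or 2.78-fold, and its level was higher in OSCC in 10 of 11 rats. In animal 17 the difference was -0.59.

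Loxl2, which carries scavenger receptor domains ahead of its catalytic domain, had log2 values from -2.96 to -2.18 on normal arrays (median -2.45) and from -3.46 to 0.36 on OSCC arrays (median -0.78). The OSCC of animal 17 lay below all normal arrays and was not well above background, and 8 OSCC arrays lay above them all. Loxl2 rose by 1.18 (standard error 0.34, 95% interval 0.45 to 1.91, adjusted p = 0.017 from limma), or 2.26-fold, with OSCC higher in 10 rats. Its call was lost with arrays scaled to their median (0.98), after normexp background correction (0.85) and with slide as a random block (1.18, adjusted p = 0.058 from limma).

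Loxl3, close to Loxl2 in its domains, ran from -3.14 to -2.23 on normal arrays (median -2.48) and from -3.42 to -1.12 on OSCC arrays (median -1.87). Its difference of 0.58 (standard error 0.22, 95% interval 0.10 to 1.05, adjusted p = 0.048 from limma) was a 1.49-fold ratio and was not called, although OSCC was higher in 10 rats. In animal 17 it was lower in OSCC, by a difference of -0.95, but there the OSCC signal was not well above background, so the size of the fall is uncertain. The adjusted p of Loxl3 from limma was 0.13 after quantile normalization, 0.36 after normexp correction and 0.065 for the authors' scaled values.

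Within the lysyl oxidases the sizes of the changes were compared rat by rat with exact sign-flip permutation tests (two-sided), adjusted over the 10 comparisons made within the 3 enzyme classes. The smallest p that 11 pairs allow is 0.00098. The change of Lox exceeded that of Loxl1 by 2.59 (95% interval 1.44 to 3.75) in 9 of 11 rats (adjusted p = 0.0056, exact). It exceeded that of Loxl2 by 2.89 and that of Loxl3 by 3.49, in 11 of 11 rats each (adjusted p = 0.0033, exact, for both). These differences take Lox signals below background as they are. In the 4 rats with Lox above background in both tissues the change of Lox minus that of Loxl1 was 3.04 (animal 4), 2.41 (animal 21), -0.27 (animal 22) and -0.09 (animal 24), so that the direction differed among them, and Lox minus Loxl2 and Lox minus Loxl3 were positive in all 4 (lowest 0.91 and 0.33). Over all 11 rats the 3 differences were 0.996, 1.51 and 1.97 after normexp correction, still significant. Loxl1 and Loxl2 differed by 0.30, within a 95% interval of -0.17 to 0.77 (adjusted p = 0.20, exact), which does not show that they change alike. The change of Loxl1 was larger than that of Loxl3 by 0.90 (adjusted p = 0.0033, exact) and that of Loxl2 by 0.60 (adjusted p = 0.029, exact). The Loxl2 and Loxl3 difference lost its significance when any 1 of 6 rats was left out (animals 4, 11, 13, 16, 25 or 26), at values from 0.50 to 0.59. In the rats scanned on 1 day Lox changed more than Loxl1 by 3.04 in animal 4 and by 3.46 in animal 9.

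Plod2, the lysyl hydroxylase of the telopeptides, was well above background on all 22 arrays. Normal arrays ran from -1.98 to -1.10 (median -1.54) and OSCC arrays from -1.27 to 2.31 (median 1.03), with 10 OSCC arrays above all normal arrays. Only the OSCC of animal 17 lay within the normal range. Plod2 rose from -1.57 ± 0.23 to 0.78 ± 1.14 (SD, n = 11), a log2 difference of 2.34 (standard error 0.32, 95% interval 1.64 to 3.05, adjusted p = 0.00042 from limma) and a 5.08-fold ratio. OSCC was higher in all 11 rats, by 0.26 (animal 17) to 3.83 (animal 25). The same gene was 307th of 19167 by size of rise.

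Plod3, a lysyl hydroxylase that also glycosylates collagen, ran from 0.13 to 0.61 on normal arrays (median 0.35) and from 0.27 to 2.19 on OSCC arrays (median 1.34). Its difference of 0.91 (standard error 0.19, 95% interval 0.50 to 1.32, adjusted p = 0.0032 from limma) was a 1.87-fold ratio and not called. OSCC was higher in 10 rats, but in animals 21, 22 and 24 the difference was only -0.05, 0.03 and 0.09. Without these 3 pairs the difference was 1.24, past 2-fold, and without animal 21 alone it was 1.00, which was also called. Plod1, which acts on lysines of the triple helix, ran from 0.28 to 0.82 on normal arrays (median 0.59) and from 0.51 to 1.73 on OSCC arrays (median 1.05). Its difference was 0.46 (standard error 0.15, 95% interval 0.14 to 0.78, adjusted p = 0.027 from limma), or 1.38-fold, which was not called, and OSCC was lower in the same 3 animals, by differences of -0.03, -0.08 and -0.23. The adjusted p of Plod1 from limma was 0.20 with arrays scaled to their median, 0.20 after normexp correction and 0.073 with slide as a random block.

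Among the lysyl hydroxylases Plod2 changed more than Plod3, by 1.44 (95% interval 0.85 to 2.02), in 10 of 11 rats (adjusted p = 0.0033, exact sign-flip test). The change of Plod1 was smaller than that of Plod2, by -1.88, and smaller than that of Plod3, by -0.45, in 10 rats each (adjusted p = 0.0033, exact, for both). The exception was animal 17 in both comparisons with Plod2 and animal 21 between Plod1 and Plod3.

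P4ha1, the widely expressed alpha subunit, had the narrowest interval around its change among the genes higher in every rat. Its probe maps to sequence not placed on a chromosome in rn4 (positions 15080990 to 15084513, minus strand). Values ran from 0.01 to 0.53 on normal arrays (median 0.20) and from 0.32 to 1.85 on OSCC arrays (median 1.07), and the tissues overlapped only through the OSCC of animal 22. The log2 difference was 0.95 (standard error 0.16, 95% interval 0.61 to 1.29, adjusted p = 0.00094 from limma). This is 1.93-fold, just below the threshold of 2-fold. It passed that threshold when the scaling percentile came from the probes detected everywhere (1.03), without animals 21, 22 and 24 (1.03), without animal 17 (1.02) and without animal 22 (1.01).

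P4ha2, the other alpha subunit on the array, ran from 0.49 to 0.90 on normal arrays (median 0.80) and from 0.56 to 2.56 on OSCC arrays (median 1.04). Its difference of 0.34 (standard error 0.17, 95% interval -0.03 to 0.71, adjusted p = 0.11 from limma) was not called, and OSCC was higher in 8 rats. The highest OSCC value and the largest difference, 1.80, were those of animal 17, in which Loxl1, Loxl2 and Loxl3 were lower in OSCC. Without animal 17 the P4ha2 difference was 0.20. The change of P4ha1 exceeded that of P4ha2 by 0.60 in 10 of 11 rats (95% interval 0.03 to 1.18, adjusted p = 0.0499, exact sign-flip test), just under the threshold, a result that lost its significance in 10 of the 11 runs that left out 1 rat and held only without animal 17 (0.82).

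**Figure D2:**
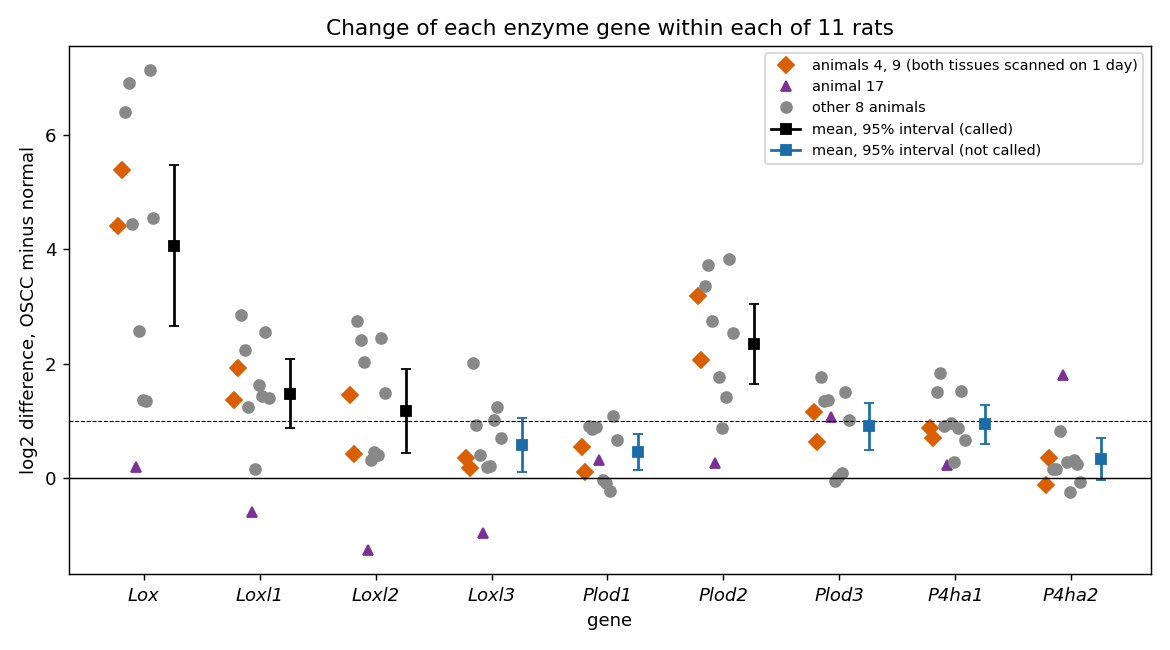
Log2 difference, OSCC minus normal (vertical axis), of each gene (horizontal axis) in each of 11 rats, with the limma mean and its 95% interval as squares, black where the gene was called. The dashed line marks a 2-fold rise. Lox spreads from 0.19 to 7.14, and animal 17 (triangles) is lowest for the 4 lysyl oxidases, Plod2 and P4ha1 and highest for P4ha2.

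The 2 rats whose tissues were scanned on 1 day give values within a single scan day. Their tissues still lay on different slides. A difference between slides cannot be told apart from one between tissues, here or with slide as a random block. In animals 4 and 9 the difference was 4.42 and 5.40 for Lox, 1.38 and 1.94 for Loxl1, 1.45 and 0.43 for Loxl2 and 3.19 and 2.06 for Plod2. All of the called genes were thus higher in OSCC in both rats. For P4ha1 the values were 0.87 and 0.71, for Plod3 1.16 and 0.64, and for P4ha2 -0.12 and 0.36. With scan day as a further term, which rests on these rats, limma called 0 of the 9 genes at the adjusted p (3 at an unadjusted p below 0.05 and 2-fold) and 3 of all 19167. The estimates were then 4.91 for Lox (adjusted p = 0.085), 2.63 for Plod2 (adjusted p = 0.085), 1.66 for Loxl1 and 0.94 for Loxl2.

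The rats differed in how many of the 9 genes moved. All 9 were higher in OSCC in animals 9, 11, 13, 16 and 25, 8 in animals 4, 24 and 26, 7 in animals 21 and 22, and 6 in animal 17. The median of the 9 differences was 2.02 in animal 11 and 1.84 in animal 13, but 0.24 in animal 17, 0.28 in animal 22 and 0.29 in animal 21. Changes of Lox and Plod2 went together over the 11 rats (Pearson r = 0.94, permutation p = 5e-05, adjusted over 36 relations 0.0018; Spearman rho = 0.90, p = 0.00038, adjusted 0.0097). Without animals 17 and 24, the 2 farthest from the Lox median, r was 0.90. Plod1 and Plod2 had r = 0.79 (permutation p = 0.0049, adjusted 0.028; rho = 0.84, p = 0.0022, adjusted 0.027), and 0.73 without animals 22 and 24. Lox and Plod1 had r = 0.77 (permutation p = 0.0077, adjusted 0.035; rho = 0.77, p = 0.0072, adjusted 0.037), and 0.80 without animals 17 and 24. Each point rests on 1 pair of arrays and on their scaling, which the genes share. Lox was well above background on only 4 of 11 normal arrays, and its dimmer signals were taken as they are. The size of the correlations with Lox is therefore uncertain. For the other pairs of the 9 genes the rats fell apart by more than 30% of the range, and a pooled correlation between them is not given. Relations over fewer than 10 rats, some with an adjusted permutation p below 0.05, are left out. Without animal 17, Lox and Loxl2 had r = 0.82 over 10 rats (permutation p = 0.0054, adjusted 0.028). Their rho was 0.78 (permutation p = 0.010, adjusted 0.046), and r was 0.75 without animals 22 and 24. Over the 10 rats other than animal 17, Loxl2 went with Plod1 (r = 0.96, permutation p = 0.00021, adjusted 0.0038; rho = 0.92, p = 0.00054, adjusted 0.0097, and r = 0.97 without animals 11 and 21) and with Plod2 (r = 0.90, permutation p = 0.00082, adjusted 0.0098; rho = 0.84, p = 0.0034, adjusted 0.031, and r = 0.91 without animals 11 and 21). P4ha2 had r = 0.16 with Lox and 0.13 with Plod2 in these rats (permutation p = 0.66 and 0.72, adjusted 0.79 for both; rho = 0.04 and -0.04, and r = -0.09 and -0.22 without animals 22 and 24).

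**Figure D3:**
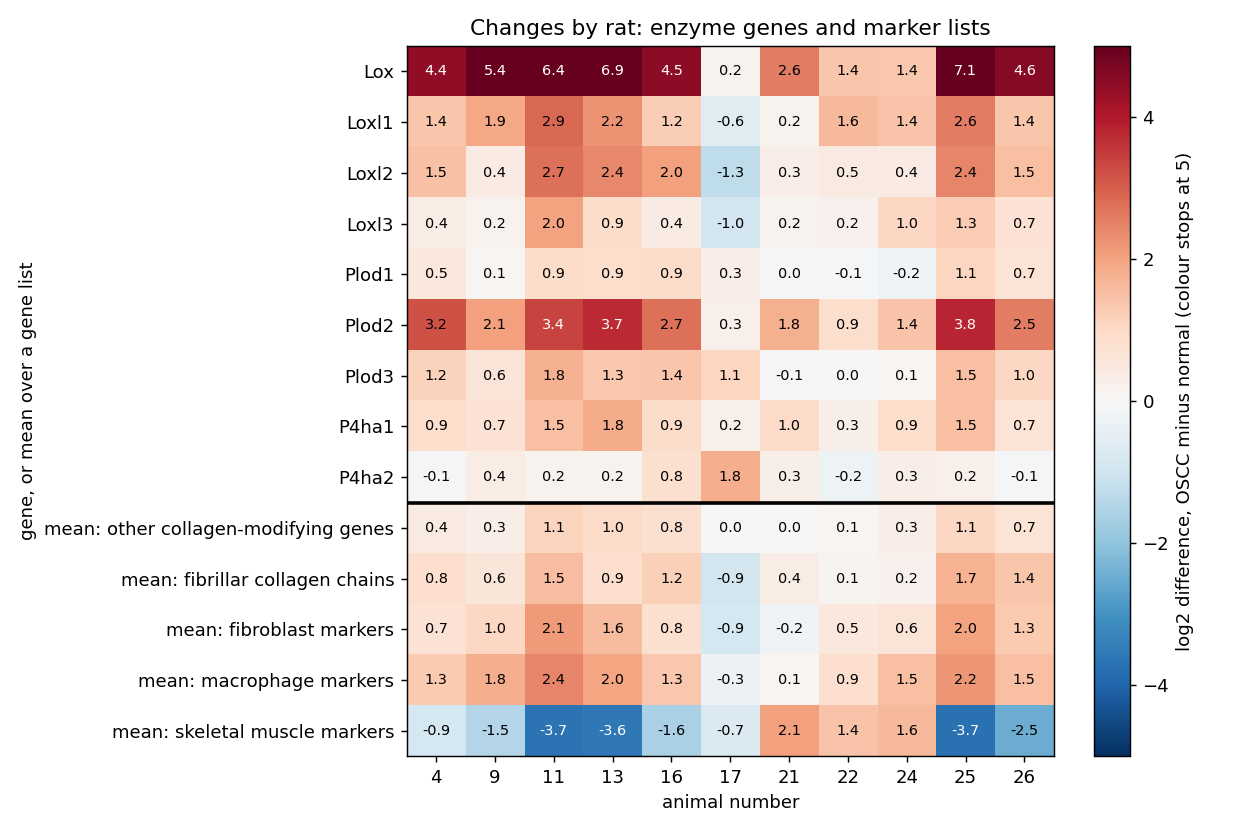
Log2 differences, OSCC minus normal, of the 9 genes (rows above the line) and means over 5 gene lists (rows below it) in each rat (columns). Red is higher and blue lower in OSCC. Animal 17 has negative values for Loxl1 to Loxl3, fibrillar collagens (-0.93) and fibroblast markers (-0.86). Animals 21, 22 and 24 have positive means over the skeletal muscle list (2.06, 1.42 and 1.64).

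The levels of cell type markers in the pieces differed between rats as well. Of 7 fibroblast marker genes (median difference 1.16) 4 were not called and 3 were called higher in OSCC, with the largest rises for Lum (1.67), a collagen-fibril proteoglycan, and Fap (1.29), a protease of activated fibroblasts. The mean over the list ran from 0.18 to 0.98 on normal arrays and from 0.02 to 2.56 on OSCC arrays, and its change was -0.86 in animal 17 and -0.17 in animal 21 but 2.15 in animal 11 and 2.0 in animal 25. Of 10 skeletal muscle genes, 6 were called lower and 1, Myh2, higher (2.17). After normexp correction 5 were lower and 0 higher, with Myh2 at 1.42 (adjusted p = 0.20 from limma), and without animals 21, 22 and 24 the counts were 8 and 0. Myh4, the heavy chain of fast fibers, fell by 4.47 and Ckm, muscle creatine kinase, by 2.19. The mean over the muscle list changed by -3.74 in animal 25 and -3.70 in animal 11 but was higher in OSCC in animals 21, 22 and 24, and its level ran from 4.88 to 6.58 on normal arrays and from 1.31 to 7.51 on OSCC arrays. This mean does not describe every muscle gene. The largest rise in any single rat was 7.60 for Myh2 but 0.77 for Ckm and 0.42 for Myh4. Of 6 macrophage genes 5 were called higher (median 1.41), with Cd68 at 2.0 and Mrc1 at 1.66. After normexp correction 4 were called, and Mrc1, then at 0.73 and so under 2-fold, was not. The list's level ran from -1.93 to -0.44 on normal and from -1.0 to 0.91 on OSCC arrays. All 4 serous gland genes on the array were called higher (median 9.07), led by Vegp1 (9.69) and Vegp2 (9.41), and their mean change was 12.60 to 14.37 in animals 4, 9, 16, 17 and 24, 4.58 to 8.48 in animals 11, 13, 21 and 22, and 1.75 and 1.93 in animals 25 and 26. The level of the gland list ran from -5.25 to -0.95 on normal and from -1.43 to 10.06 on OSCC arrays. Vegp1 and Vegp2 were well above background on only 2 and 4 of 11 normal arrays, so the size of their rises is uncertain. After normexp correction 4 gland genes were called higher, with a median of 6.71. Of 5 epithelial genes, not all of them specific to squamous cells, 0 were called by limma (0 at an unadjusted p below 0.05 and 2-fold). Krt5 and Krt14, keratins of basal squamous cells, were well above background on all 22 arrays. The OSCC of animal 24 stood apart, with a mean over this list 2.47 below that of its normal tissue (level 1.65, against 3.19 to 4.85 in the other OSCC pieces). Of 5 endothelial genes 0 were called by limma (0 at an unadjusted p below 0.05 and 2-fold), and of 5 smooth muscle and myofibroblast genes 1, Myh11, was called lower (-1.36). The level ranges were -0.09 to 0.30 (normal) and -1.13 to 0.42 (OSCC) for the endothelial list, 1.23 to 2.53 and 0.67 to 2.71 for the smooth muscle list and 3.62 to 4.21 and 1.65 to 4.85 for the epithelial list. No marker of these 7 lists was below background on all arrays. The part of tissue composition in the changes of the enzymes was not tested.

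Other enzymes and chaperones that modify collagen were listed beside these genes. Of 26, 24 were on the array, and limma called 6 higher and 1 lower while 17 were not called (median difference 0.52). Creb3l1, a transcription factor of the secretory pathway that drives collagen genes, rose by 2.47 (standard error 0.39, adjusted p = 0.00073 from limma), or 5.55-fold. Fkbp10, a chaperone that helps Plod2 act on telopeptides, rose by 1.33 (2.51-fold, adjusted p = 0.02), Sparc, a collagen-binding matrix protein, by 1.20 (2.29-fold, adjusted p = 0.0062), and Adamts2, which removes procollagen N-propeptides, by 1.04 (2.05-fold, adjusted p = 0.0087), each in 10 of 11 rats. Tll2, a tolloid protease, and Loxl4, the fifth lysyl oxidase, were well above background on 0 normal arrays and on 7 and 6 OSCC arrays. Tll2 was at least 1.02-fold higher (adjusted p = 0.00051 from limma), and for Loxl4 (adjusted p = 0.0032) no fold is given, since its OSCC mean did not exceed the detection limit of the normal arrays. After normexp correction Tll2 had 0.51 (adjusted p = 0.44 from limma) and Loxl4 0.34 (adjusted p = 0.72), and neither was called. P4htm, a membrane-bound prolyl hydroxylase that is better known for acting on hypoxia-inducible factor than on collagen, fell by 1.29 (2.44-fold, adjusted p = 0.0027). P4hb, the partner of the alpha subunits, differed by 0.53 (standard error 0.12, adjusted p = 0.0059, higher in 11 rats) and Serpinh1, the collagen chaperone HSP47, by 0.77 (standard error 0.25, adjusted p = 0.028), and neither was called. The number called higher was 7 after quantile normalization, 4 with the array median, 6 with the 75th percentile of detected probes, 6 for the authors' scaled values and 9 without animals 21, 22 and 24. After normexp correction 1 was called higher and none lower.

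The substrates of the enzymes were fibrillar collagen chains, of which 10 of 11 were on the array, with 6 called higher and 2 lower (median 1.10). Col1a1 was 3.03-fold higher in OSCC, a difference of 1.60 with adjusted p = 0.016 in limma, and Col1a2 2.78-fold, a difference of 1.47 with adjusted p = 0.0079, and both are chains of type I collagen. Col3a1 was 2.06-fold higher (1.04, adjusted p = 0.018). The largest rises were those of Col5a2 (1.99, adjusted p = 0.0017) and Col5a3 (1.64, adjusted p = 0.012), chains of type V collagen. Col11a2 and Col24a1, each above background on 7 normal and 3 OSCC arrays, fell by 1.27 and 1.10. After normexp correction 3 chains were called higher and none lower. Of the chains with lost calls Col1a1 then had 1.59 (adjusted p = 0.065) and Col1a2 1.41 (adjusted p = 0.067).

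**Figure D4:**
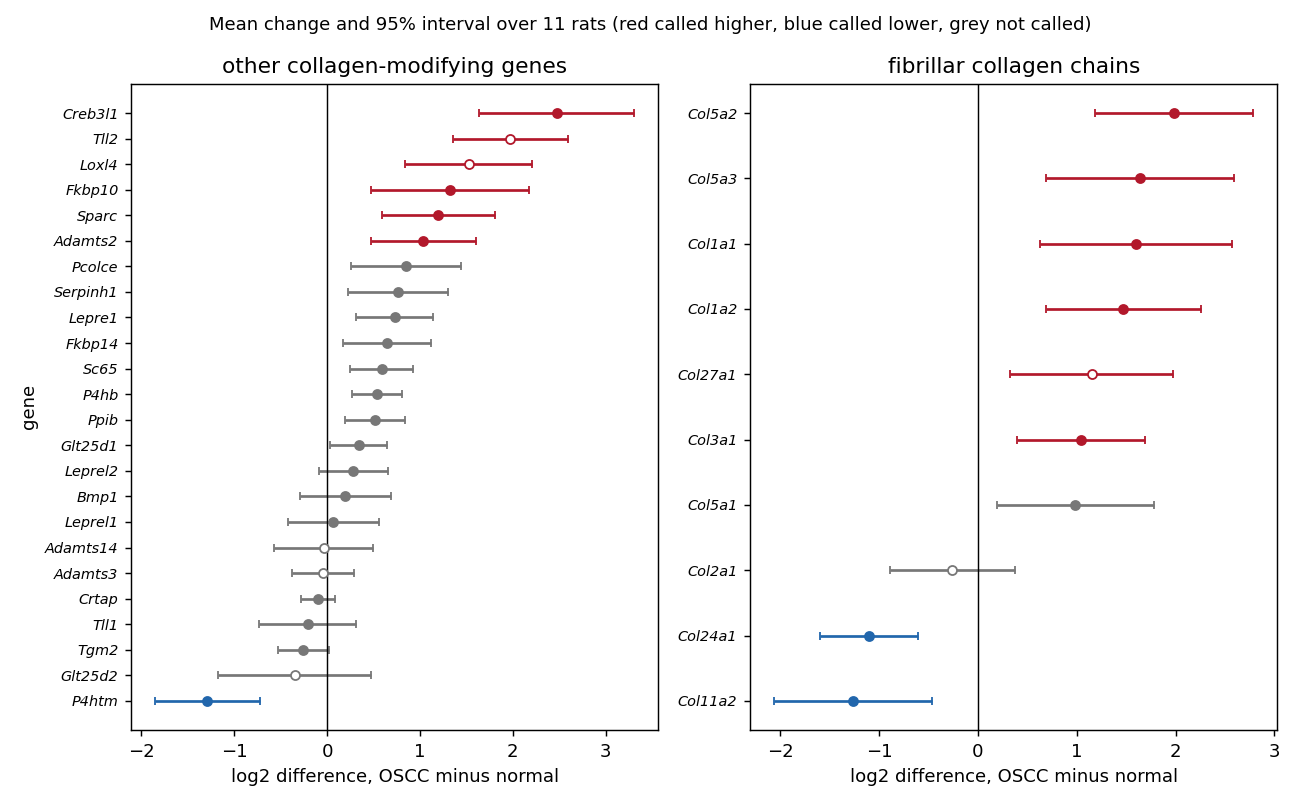
Mean log2 difference, OSCC minus normal, with its 95% interval from limma over 11 rats (horizontal axis) for 24 other collagen-modifying genes (left) and 10 fibrillar collagen chains (right). Red was called higher, blue lower, grey not called, and open circles mark genes below background on all arrays of 1 tissue. Creb3l1 (2.47) and Col5a2 (1.99) lie farthest to the right.

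Elastin, the other substrate of the lysyl oxidases, was not called: Eln differed by -0.04 (standard error 0.32, 95% interval -0.74 to 0.66, adjusted p = 0.92 from limma). Of 12 elastic fiber genes 3 were called higher and 1 lower (median 0.28). Fbn1, the main fibrillin, was 2.33-fold higher (1.22, adjusted p = 0.0059), and Fbn2, on 0 normal and 7 OSCC arrays above background, was at least 1.76-fold higher (adjusted p = 0.0041), but after normexp correction Fbn2 had 0.40 and was not called (adjusted p = 0.49 from limma). Efemp1, a fibulin, fell by 1.89 (3.71-fold, adjusted p = 0.00038) and was lower in OSCC in all 11 rats. Of 5 copper and ascorbate transport genes 0 were called by limma (0 at an unadjusted p below 0.05 and 2-fold), and 3 of them were above background on at most 2 of the 22 arrays.

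Several of the enzyme genes are known targets of hypoxia and of transforming growth factor beta. Of the 15 hypoxia-inducible genes listed, 14 had a probe, and 3 were called higher and 1 lower (median 0.08, but -0.12 with arrays scaled to their median). Ero1l, an oxidase of the endoplasmic reticulum, was higher in all 11 rats (1.34, 2.53-fold, adjusted p = 0.00018 from limma), and Car9, carbonic anhydrase IX, rose by 1.58 (2.99-fold, adjusted p = 0.0015). Car9 was above background on 2 normal and 11 OSCC arrays, and after normexp correction it had 0.52 and was not called (adjusted p = 0.30 from limma). Bnip3 fell by 1.16 (2.24-fold, adjusted p = 0.014). The mean over this list changed by between -0.12 and 0.50 in single rats. Skil, a regulator of transforming growth factor beta signaling, was 1 of 8 genes listed for that pathway, and the other genes of the list are not reported here. It was above background on 0 normal and 8 OSCC arrays and was at least 1.12-fold higher (adjusted p = 0.00044 from limma). After normexp correction it had 0.52 and was not called (adjusted p = 0.28 from limma). With scan day as a term limma called 0 genes of any of these lists.

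RefSeq promoter windows of the GRCr8 assembly, from 250 bases before to 50 after the start, were at hand for 8 of the 10 genes, all but Lox and Loxl2. They were searched for ACGTG and GCGTG, the core that hypoxia-inducible factor binds, on both strands, so that overlapping matches on opposite strands count separately. At least 1 match was in 6 of the 8 windows and in 41.6% of all 33469 promoters. There were 5 matches for P4ha2, 4 for Plod2, 3 for P4ha1, 2 for Plod3, 1 each for Loxl3 and Plod1 and 0 for Loxl1 and P4ha3, and 8.15% of all promoters held 3 or more. TATAAA on the plus strand was in 0 of the 8 and in 8.8% of all. The 250 bases before the start are printed for Plod2, which rose 5.08-fold, and for P4ha2, which was not called and had the most matches. Capitals mark the matches, and CACGT and CACGC are the core read on the other strand.
Plod2, chr8:101964068-101964317, plus strand: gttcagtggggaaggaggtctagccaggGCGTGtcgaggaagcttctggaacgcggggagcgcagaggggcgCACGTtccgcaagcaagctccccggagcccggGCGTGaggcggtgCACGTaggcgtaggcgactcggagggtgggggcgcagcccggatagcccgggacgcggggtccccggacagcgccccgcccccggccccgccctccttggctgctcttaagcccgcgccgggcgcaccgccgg
P4ha2, chr10:38743644-38743893, plus strand: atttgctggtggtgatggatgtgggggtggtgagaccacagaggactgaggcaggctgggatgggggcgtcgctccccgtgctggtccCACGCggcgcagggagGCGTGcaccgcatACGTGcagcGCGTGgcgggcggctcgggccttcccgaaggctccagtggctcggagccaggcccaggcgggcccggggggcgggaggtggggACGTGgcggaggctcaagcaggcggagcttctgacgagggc
A match is a description of the letters and no binding was measured. P4ha2, with 5 matches, changed by 0.34, Plod2, with 4, by 2.34, P4ha1, with 3, by 0.95 and Plod3, with 2, by 0.91. With 1 match each, Loxl3 changed by 0.58 and Plod1 by 0.46, and Loxl1, with 0, rose by 1.48. Whether matches and changes are related was not tested.

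For each called gene the 3 genes with the most similar differences over the 11 rats were taken from 9550 genes well above background on all 22 arrays, by Pearson correlation, as a description. Rats that fell apart from the others were kept in, animals 17 and 21 for Loxl1 and animal 17 for Loxl2. The correlations of these 2 genes can therefore rest on those rats. The correlations of Lox include normal signals near background, since only 4 of 11 normal arrays were well above it. All values are the highest of a search. For Lox they included Il2rg and Pqlc3 (r = 0.97 each), for Loxl1 they were Ltbp1 (0.98), Igfbp4 (0.97) and Col6a1 (0.96), for Loxl2 Mmd (0.97), Sparc (0.97) and Col5a2 (0.96), and for Plod2 Mmd (0.98), Grem1 (0.97) and Rasl11b (0.97). Mmd was listed for both Loxl2 and Plod2. Grem1, an antagonist of bone morphogenetic proteins, had a mean difference of 3.78 and Ltbp1, which binds latent transforming growth factor beta, one of 0.52.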

How the data were processed

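RNA of 11 pairs of OSCC and normal tongue was hybridized to one-color arrays by the authors, who used Feature Extraction 9.5.3.1, per the file headers. The deposited intensity values (processed signals) are background-subtracted and detrended, in linear units without scaling between arrays. A ratio, the processed signal over the array's 75th percentile, was deposited too, and equals the one computed here within 2% for 99.97% of values. Here, control spots and 9196 outlier spots (0.975%) were left out, log2 signals were averaged per probe, and the array's 75th percentile was taken off. Probes of low signal were kept. The brightest probe stood for a gene.

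Tissues were compared by limma 3.58.1 (R 4.3.3) in a model of rat plus tissue, since 1 animal gave both (within-rat correlation of deviations across probes -0.21 to 0.24, median -0.02). Benjamini-Hochberg adjustment covered all 30367 probes. For a gene above background on no array of a tissue, the fold is a lower limit against the lowest signal above background on those arrays. Relations used 1e+05 permutations. The tests were tried on simulated data. The genes and lists were chosen with earlier results of these data known. Named were all 10 genes, called genes of the collagen-modifying list with Loxl4, P4hb and Serpinh1, at most the 2 largest called rises and falls of every other list, Col1a1, Col1a2, Col3a1 and Eln, and 3 genes of similar change per called gene. A gene that this rule names is not reported here. Krt5 and Krt14 were named as a check of the tissue. Alternatives covered scaling, background, dim probes, scan day, slide, the rat term and the rats included.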

Additional observations from a re-analysis of the deposited data

How the results depend on the processing

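The number of the 9 genes called was 4, and 3 to 6 in all alternatives but scan day as a term, with which it was 0 (Lox 4.91, Loxl1 1.66, Loxl2 0.94 and Plod2 2.63, none called at the adjusted p). No difference changed its direction. Scaling to the array median moved the median over all genes from -0.21 to -0.41 and left Loxl2 at 0.98, uncalled. Normexp correction left Loxl2 at 0.85, uncalled, the difference between Loxl2 and Loxl3 at 0.46, no longer significant, and that between Loxl1 and Loxl2 at 0.52, now significant. With slide as a random block Loxl2 had 1.18, uncalled. P4ha1 was called with scaling on detected probes (1.03), and so were P4ha1 (1.03) and Plod3 (1.24) without animals 21, 22 and 24. The difference between P4ha1 and P4ha2 lost significance after quantile normalization (0.61), in the 9 pairs scanned on different days (0.59) and without animals 21, 22 and 24 (0.61), and that between Loxl2 and Loxl3 in those 9 pairs (0.59). Why was not tested, except that the day term leaves the estimate to 2 rats. Of all 19167 genes 2822 were called, 1149 after normexp correction, 4540 without animals 21, 22 and 24 and 3 with the day term. Raising dim signals, an alternative chosen after seeing the data, gave 4 called genes.

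With 1 rat left out in turn, the number called was 4 to 5. Differences ranged from 3.76 to 4.46 (Lox), 1.34 to 1.68 (Loxl1), 1.02 to 1.42 (Loxl2), 0.43 to 0.73 (Loxl3), 0.40 to 0.53 (Plod1), 2.20 to 2.55 (Plod2), 0.82 to 1.00 (Plod3), 0.86 to 1.02 (P4ha1) and 0.20 to 0.40 (P4ha2). Between genes they ranged from 0.50 to 0.72 for Loxl2 and Loxl3 and from 0.50 to 0.82 for P4ha1 and P4ha2. Without the pairing of rats (no replicate block) 4 genes were called, Lox with 4.07. Another probe of the same gene could not be tried, as each gene had 1. Precision for Lox in normal tissue is limited by signals near background.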
